A study of Mus musculus with 12 samples.

Results

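The 9 genes *Mbp*, *Mog*, *Mag*, *Mobp*, *Cnp*, *Mal*, *Cldn11*, *Ugt8a* and *Ermn* were picked by symbol as textbook genes of myelin and mature oligodendrocytes. All 9 were measured, of 18180 genes in all. Myelin is the lipid-rich membrane that oligodendrocytes wrap around axons, and its proteins and the enzyme of its main glycolipid are made in quantity by mature oligodendrocytes. Oligodendrocyte progenitor cells (OPCs) carry PDGFRA, the alpha receptor of platelet-derived growth factor. They lose it as they commit to the lineage, and turn on early genes such as *Bcas1* and *Enpp6* before the full set of myelin genes. The transcription factors SOX10, OLIG2 and MYRF drive this program in the normal brain.

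Their levels were compared across 4 populations of EGFR+ cells sorted from 3 end-stage mouse GBMs (T3, T4 and T5), which gives 12 libraries with 1 library per population and tumor. The GBMs arose in adult mice of a mixed background (Balb/cJ, C57Bl/6J, FVBN/J, SJL and 129S4) after a Cre lentivirus was injected into the striatum. All 4 populations shared Cdkn2a-/- alleles and a human EGFR transgene and luciferase reporter that Cre turns on. From each tumor, EGFR+ cells were sorted by PDGFRA (PDGFRA+ and PDGFRA- cells) and by Galectin-1 (GAL1+ and GAL1- cells). The Results of the study call the sorted cells CD45-, while its Methods list, for this sort, PDGFR or Galectin-1 antibodies alongside one to EGFR. For dissociation these Methods refer to an earlier protocol, and the one given for flow cytometry includes a Percoll step that takes out myelin. No library of normal oligodendrocytes was analysed here, and a cell of one sort can fall in either gate of the other. The human transgene is not part of the mouse genome used for alignment, so its level could not be checked. Levels are log2 CPM (reads of a gene scaled to the total of its library, on a log2 scale), and differences are log2 fold changes from a limma model with the tumor as a block. A gene is said to rise or fall where its Benjamini-Hochberg adjusted p over all genes was under 0.05.

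Libraries held 9851175 to 24117541 recovered reads, and a floor of 3 reads lay at a log2 CPM of −2.99 to −1.44, which covers counting error only. GAL1- libraries were the deepest, at 21728280 to 24117541 reads. *Pdgfra*, the sort marker, was higher in PDGFRA+ than in PDGFRA- cells in 3 of 3 tumors, by 0.70 in T3, 1.51 in T4 and 2.59 in T5 on the log2 scale (adjusted p = 0.249). Libraries of the same tumor deviated together (Pearson r of 0.140 to 0.662 over 18 pairs of libraries, across genes, which are not independent replicates).

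Promoter sequences are shown for 3 members that stand for the patterns below. These are *Mog* (low in PDGFRA+ and GAL1+ cells), *Cnp* (the highest per kilobase of merged exons) and *Ugt8a* (level across the PDGFRA sort). The sequences are the 250 bases before the annotated start on the gene's strand, from RefSeq on GRCm38.p6. That is not the mm39 build of the libraries. Capitals mark matches on either strand to the MYRF letters CTGGNAC or to the E-box CANNTG, the letters bound by OLIG2 and other basic helix-loop-helix factors, and no base lies in both.
Mog: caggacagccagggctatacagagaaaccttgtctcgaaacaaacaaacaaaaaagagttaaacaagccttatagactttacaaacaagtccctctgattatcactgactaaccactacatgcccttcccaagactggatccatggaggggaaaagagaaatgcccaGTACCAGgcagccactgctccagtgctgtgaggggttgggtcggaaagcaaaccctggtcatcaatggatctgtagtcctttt
Cnp: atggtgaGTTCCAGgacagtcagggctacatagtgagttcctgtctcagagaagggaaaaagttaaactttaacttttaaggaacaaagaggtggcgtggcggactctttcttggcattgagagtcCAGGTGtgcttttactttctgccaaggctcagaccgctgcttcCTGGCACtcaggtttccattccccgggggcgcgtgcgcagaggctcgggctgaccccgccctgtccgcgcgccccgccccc
Ugt8a: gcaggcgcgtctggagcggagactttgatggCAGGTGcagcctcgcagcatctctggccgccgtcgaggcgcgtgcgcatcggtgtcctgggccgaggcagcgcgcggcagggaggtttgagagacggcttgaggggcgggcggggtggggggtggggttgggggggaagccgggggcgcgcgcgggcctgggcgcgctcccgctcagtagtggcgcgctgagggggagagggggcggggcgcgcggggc
The *Mog* stretch lies at chr17:37023399-37023648 on the minus strand, that of *Cnp* at chr11:100574689-100574938 on the plus strand and that of *Ugt8a* at chr3:125938653-125938902 on the minus strand. The *Mog* window holds 1 match to CTGGNAC and no E-box, the *Cnp* window holds 2 matches to CTGGNAC and 1 E-box, and the *Ugt8a* window holds 1 E-box and no CTGGNAC. Of 8 members with a promoter in the table (10 promoters, 3 of them for *Mag*), 3 hold CTGGNAC in at least 1 promoter (*Cnp*, *Mag* and *Mog*). Among all 32851 mouse promoters of the same length 16.1% hold it. An E-box is in a promoter of 3 members (*Cnp*, *Mag* and *Ugt8a*) against 66.2% of all promoters, and ACAAT, letters of the SOX family, is in that of 1 member (*Ermn*) against 27.7%. The counts of members are per gene, with any of its promoters counted, while the shares are per promoter, so they are not in like units. These matches are letters only, and no binding was measured.

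The myelin genes were highest in PDGFRA- cells and lowest in GAL1+ cells in most tumors. Within a tumor, PDGFRA- was the highest of the 4 populations in 23 of 27 pairs of gene and tumor and GAL1- in the other 4, while over all genes PDGFRA- was highest in 20.2% of such pairs. GAL1+ was the lowest in 22 of 27 pairs, against 38.3% over all genes. The mean log2 CPM of the 9 genes was 4.67, 4.91 and 5.46 in PDGFRA- cells of T3, T4 and T5, 3.74, 4.41 and 4.39 in GAL1-, 3.81, 3.20 and 3.49 in PDGFRA+, and 3.19, 2.29 and 2.64 in GAL1+ cells. Every PDGFRA- library thus lay above every library of the other 3 populations. GAL1- libraries overlapped those of PDGFRA+ cells, and each GAL1+ library lay under each of the other 9. In these bulk samples, fewer cells that make myelin RNA and less myelin RNA per cell cannot be told apart.

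**Figure D1:**
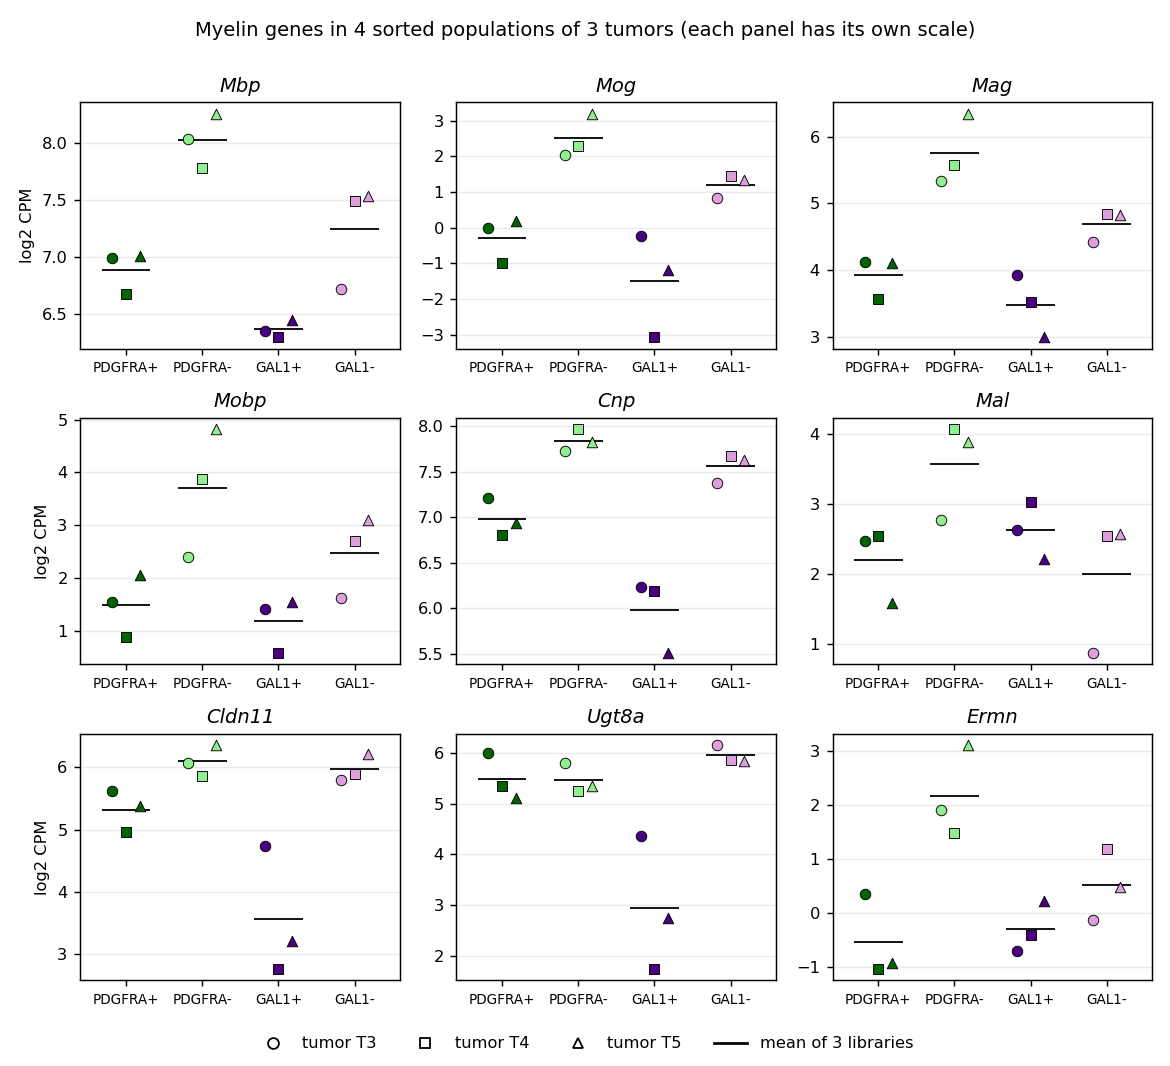
The level (log2 CPM, a separate scale for each gene) of the 9 myelin genes is plotted for PDGFRA+, PDGFRA-, GAL1+ and GAL1- cells, with 1 point per library, a marker for each tumor and a line at the mean of 3 libraries. PDGFRA- libraries have the highest mean for 8 genes, and *Ugt8a* has its highest mean in GAL1- cells (5.95).

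*Mbp*, *Mog*, *Mag*, *Mobp* and *Cnp* were each highest in PDGFRA- and lowest in GAL1+ cells in 3 of 3 tumors. *Mbp* encodes myelin basic protein, which holds the inner faces of the myelin membrane together. Its log2 CPM in T3, T4 and T5 was 8.04, 7.79 and 8.26 in PDGFRA- cells, 6.72, 7.49 and 7.54 in GAL1-, 6.99, 6.67 and 7.01 in PDGFRA+ and 6.35, 6.30 and 6.45 in GAL1+ cells. PDGFRA- libraries stood above all others, GAL1+ libraries under all others, and the ranges of GAL1- and PDGFRA+ cells overlapped. The *Mbp* locus also makes golli transcripts, which immune cells and neurons use, and values per gene do not separate them.

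*Mog* encodes a glycoprotein of the outermost myelin surface. In T3, T4 and T5 it was at 2.02, 2.29 and 3.20 in PDGFRA- cells, 0.83, 1.45 and 1.34 in GAL1-, −0.02, −0.98 and 0.18 in PDGFRA+ and −0.23, −3.07 and −1.17 in GAL1+ cells. The lowest of these, GAL1+ cells of T4, was 1 read, under the floor, and the other GAL1+ libraries held 14 and 5 reads. PDGFRA- libraries did not overlap with GAL1- libraries, nor GAL1- with PDGFRA+ libraries, while those of PDGFRA+ and GAL1+ cells did.

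*Mag*, myelin-associated glycoprotein, sits on the membrane that faces the axon. It was at 5.34, 5.57 and 6.34 in PDGFRA- cells, 4.42, 4.84 and 4.82 in GAL1-, 4.12, 3.57 and 4.11 in PDGFRA+, and 3.92, 3.51 and 2.99 in GAL1+ cells. The order was that of *Mog*, with overlap between PDGFRA+ and GAL1+ libraries alone. *Mobp*, a small basic protein of compact myelin, varied more between tumors, at 2.40, 3.88 and 4.81 in PDGFRA- cells, 1.63, 2.71 and 3.10 in GAL1-, 1.55, 0.89 and 2.07 in PDGFRA+ and 1.42, 0.58 and 1.56 in GAL1+ cells. The SD of *Mobp* in PDGFRA- cells was 1.22 against 0.24 for *Mbp*, T3 being the lowest of the PDGFRA- libraries.

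*Cnp* encodes a cyclic nucleotide phosphodiesterase of the cytoplasmic channels of myelin, and it is made earlier in the lineage than *Mog*. It was at 7.73, 7.97 and 7.83 in PDGFRA- cells, 7.38, 7.68 and 7.63 in GAL1-, 7.21, 6.81 and 6.94 in PDGFRA+ and 6.23, 6.19 and 5.51 in GAL1+ cells. No 2 populations overlapped for *Cnp*. The distance from PDGFRA- to GAL1- cells was small (0.28 on the log2 scale, standard error 0.19).

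Between populations, *Cldn11* and *Ugt8a* had their largest differences against GAL1+ cells. *Cldn11*, the claudin of the tight junctions between myelin layers, was at 6.06, 5.86 and 6.36 in PDGFRA- cells, 5.80, 5.89 and 6.21 in GAL1-, 5.62, 4.96 and 5.38 in PDGFRA+ and 4.74, 2.77 and 3.22 in GAL1+ cells. *Ugt8a* encodes the enzyme that makes galactosylceramide, the main glycolipid of myelin. It was at 6.15, 5.87 and 5.84 in GAL1-, 5.99, 5.36 and 5.11 in PDGFRA+, 5.79, 5.25 and 5.34 in PDGFRA- cells and 4.35, 1.74 and 2.75 in GAL1+ cells. GAL1+ libraries lay under all others for both genes, as they did for *Mbp* and *Cnp*. For *Cldn11* and *Ugt8a* the GAL1+ library of T3 was well above those of T4 and T5. That of *Cldn11* (4.74) was close to the lowest PDGFRA+ library (4.96). *Ugt8a* was the 1 member highest in GAL1- cells in 3 of 3 tumors, and its PDGFRA+ and PDGFRA- libraries overlapped.

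*Mal* and *Ermn* departed from the rest at the low end. *Mal*, a raft protein of myelin that is also made by T cells, was at 2.78, 4.06 and 3.88 in PDGFRA- cells, 2.63, 3.03 and 2.21 in GAL1+, 2.47, 2.55 and 1.59 in PDGFRA+ and 0.87, 2.55 and 2.57 in GAL1- cells. The lowest *Mal* library was GAL1- cells of T3, and GAL1+ libraries overlapped with those of each other population. *Ermn*, a cytoskeletal protein of late oligodendrocytes, was at 1.91, 1.48 and 3.10 in PDGFRA- cells, −0.13, 1.19 and 0.48 in GAL1-, −0.70, −0.40 and 0.23 in GAL1+, and 0.35, −1.04 and −0.93 in PDGFRA+ cells. It rested on 5 to 92 reads per library, and it was lowest in PDGFRA+ cells in 2 of 3 tumors.

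Per kilobase of exon (lengths from GENCODE vM21, another build), *Cnp* had the highest value of the members in each population. The length is that of all annotated exons of a gene merged, 8123 bases for *Mbp* and 2357 for *Cnp*. By mean log2 CPM, which takes no length, *Mbp* stood above *Cnp* in PDGFRA- (8.03 against 7.84) and GAL1+ cells (6.37 against 5.98). The order of these genes thus depends on the length used. The median of *Cnp* was 96.3 CPM per kb in PDGFRA- cells, 84.0 in GAL1-, 52.1 in PDGFRA+ and 31.0 in GAL1+ cells. *Mbp* and *Cldn11* had medians of 32.3 and 35.7 CPM per kb in PDGFRA- cells, and those of *Mag*, *Mog* and *Ermn* were 19.4, 2.88 and 1.04. The summed level of the 9 genes was 654 to 798 CPM in PDGFRA- libraries, 428 to 562 in GAL1-, 307 to 417 in PDGFRA+ and 166 to 230 in GAL1+ libraries.

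The PDGFRA sort asked whether EGFR+ cells with and without the receptor differ. Myelin genes were lower in PDGFRA+ cells by point estimate, with 8 of 9 members lower in 3 of 3 tumors and their libraries not overlapping (3.43% of all genes were lower without overlap), but no member passed the adjusted threshold. The difference for *Mog* was −2.78 on the log2 scale (standard error 0.58, adjusted p = 0.214), 6.86-fold lower in PDGFRA+ cells. *Ermn* had −2.70 (0.55, adjusted p = 0.214) and *Mobp* −2.20 (0.45, adjusted p = 0.214). *Ermn* was at −2.04 without T5 and *Mobp* at −2.87 without T3. These 3 were 4th, 5th and 15th of 18180 genes by the size of their excess in PDGFRA- cells.

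*Mag* differed by −1.82 (adjusted p = 0.202), *Mal* by −1.37 (adjusted p = 0.300), *Mbp* by −1.14 (adjusted p = 0.202), *Cnp* by −0.85 (adjusted p = 0.214) and *Cldn11* by −0.77 (adjusted p = 0.430). *Ugt8a* stood apart from them at 0.03 (standard error 0.37, adjusted p = 0.982), higher in PDGFRA+ cells in 2 of 3 tumors, and turned to −0.06 without T3 and −0.02 without T4. The median over the members was −1.37, against −0.02 over all genes. At an unadjusted p under 0.05, 7 of 9 members were lower, against 5.74% of all genes. The model called 0% of all genes as higher and 0% as lower in this comparison, with a smallest adjusted p of 0.181 and 2137 genes at an unadjusted p under 0.05.

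**Figure D2:**
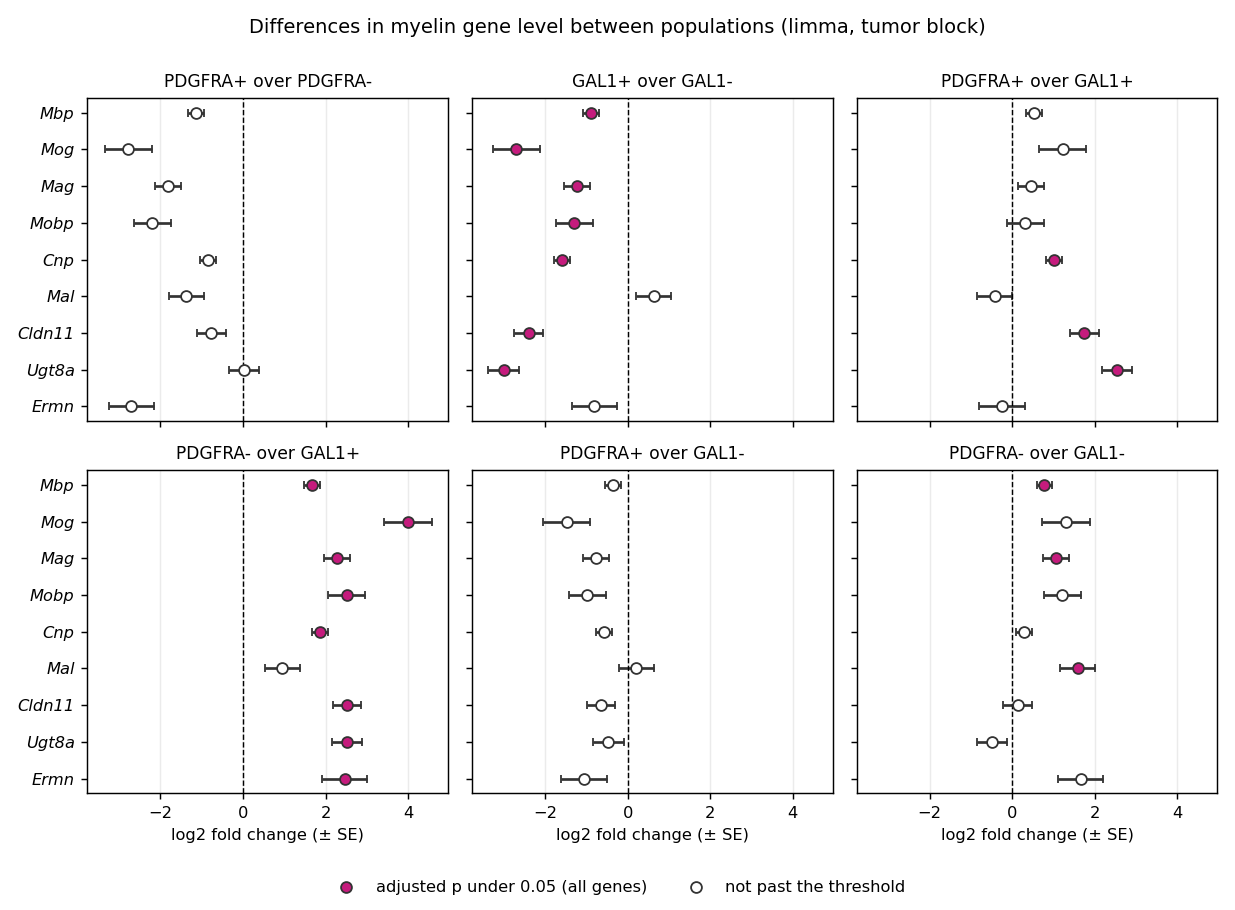
Log2 fold changes of the 9 genes (points) with their standard errors (bars) are plotted for the 6 comparisons of populations, and filled points passed an adjusted p of 0.05. In PDGFRA+ over PDGFRA- cells 8 points lie left of 0 and none is filled, and in PDGFRA- over GAL1+ cells 8 of 9 are filled.

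In the Galectin-1 sort, 7 of 9 members fell in GAL1+ cells and none rose, in a comparison that called 29.3% of all genes as lower and 28.9% as higher. *Ugt8a* fell by 3.01 on the log2 scale (standard error 0.37, adjusted p = 0.000135) and *Mog* by 2.70 (0.58, adjusted p = 0.00300). *Cldn11* fell by 2.39 (0.35, adjusted p = 0.00034) and *Cnp* by 1.58 (0.19, adjusted p = 0.000125). Each was lower in GAL1+ cells in 3 of 3 tumors. The size moved with the tumors, *Mog* having −1.79 without T4, whose GAL1+ library held 1 read, and −3.52 without T3. Without T3, *Ugt8a* had −3.61 and *Cldn11* −3.06.

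*Mag* fell by 1.22 (adjusted p = 0.00769), *Mobp* by 1.30 (adjusted p = 0.0322) and *Mbp* by 0.88 (adjusted p = 0.00326). *Mobp* lost its call without T4 (adjusted p = 0.197), without T5 (0.175) and without the tumor block (0.0961), and *Mbp* lost it without T5 (0.0560). *Mal* was at 0.63 (adjusted p = 0.228) and *Ermn* at −0.81 (adjusted p = 0.236). The median over the members was −1.30, against −0.03 over all genes.

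PDGFRA+ cells were compared with GAL1+ cells, the pair of positive gates. Here 3 of 9 members rose in PDGFRA+ cells and none fell, in a comparison that called 20.9% of all genes as higher and 17% as lower. *Ugt8a* rose by 2.54 (standard error 0.37, adjusted p = 0.00178), *Cldn11* by 1.75 (0.35, adjusted p = 0.00547) and *Cnp* by 1.01 (0.19, adjusted p = 0.00426). *Cldn11* had an adjusted p of 0.0574 without T5. *Mbp* did not overlap between the gates, and differed by 0.52 on the log2 scale (adjusted p = 0.0555). The other members did not pass either. *Mog* was at 1.22 (0.58, adjusted p = 0.122), higher in PDGFRA+ cells in 3 of 3 tumors. *Mag* was at 0.45 (0.31, adjusted p = 0.272), *Mobp* at 0.31 (0.45, adjusted p = 0.609), *Mal* at −0.42 (0.42, adjusted p = 0.454) and *Ermn* at −0.25 (0.55, adjusted p = 0.751). *Ermn* turned to 0.21 without T5.

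PDGFRA- over GAL1+ cells gave the largest count of calls among the 6 comparisons, with 8 of 9 members higher in PDGFRA- cells, against 13.2% of all genes (6.91% lower). *Mog* rose by 4.00 (standard error 0.58, adjusted p = 0.00621), 3rd of 18180 genes by size. Its GAL1+ library at 1 read belonged to T4, and the log2 fold change of *Mog* was 3.31 without T4 and 4.87 without T3. *Cldn11* rose by 2.52, *Ugt8a* by 2.51, *Mobp* by 2.51, *Ermn* by 2.46, *Mag* by 2.27, *Cnp* by 1.86 and *Mbp* by 1.66 (adjusted p of 0.00411 to 0.0186). Without T3, *Mobp* was at 3.28 and *Cldn11* at 3.12. *Mal* was at 0.95 (adjusted p = 0.135). Without T4 the model called 0 genes of all 18180 in this comparison, and the members had positive log2 fold changes, with *Mbp* at 1.75 (adjusted p = 0.0814) and *Ugt8a* at 2.01 (adjusted p = 0.0814). Without T5 the count was 6 and without T3 it was 7.

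Against GAL1- cells, 3 members rose in PDGFRA- cells and none fell, in a comparison that called 16.2% of all genes as higher and 6.88% as lower. These were *Mal* (1.58, standard error 0.42, adjusted p = 0.0272), *Mag* (1.05, 0.31, adjusted p = 0.0379) and *Mbp* (0.78, 0.19, adjusted p = 0.0195). *Ermn* (1.65, adjusted p = 0.0571), *Mog* (1.30, adjusted p = 0.128) and *Mobp* (1.21, adjusted p = 0.0794) did not pass. *Cldn11* differed by 0.13 (standard error 0.35, adjusted p = 0.818), and *Ugt8a* had the opposite sign at −0.49 (0.37, adjusted p = 0.350). No call was left without the tumor block or without T5, and 2 members passed without T3 or without T4.

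PDGFRA+ cells showed no called difference from GAL1- cells in any member, where 8.26% of all genes were called higher and 0.011% lower. The log2 fold changes ran from −1.48 for *Mog* (adjusted p = 0.205) to 0.21 for *Mal* (adjusted p = 0.832), and at an unadjusted p under 0.05, 3 members were lower, against 1.85% of all genes. With the fit made on these populations alone, 5 members passed, all lower in PDGFRA+ cells, where 5.51% of all genes were called lower. The comparisons share populations, so their values are set side by side and not counted as independent.

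Levels of the members moved together over the 12 libraries, which share tumors and sorts. Pearson r over the 36 pairs of members ran from −0.15 for *Mal* with *Ugt8a* to 0.94 for *Cldn11* with *Ugt8a*, with a median of 0.78. *Mbp*, *Mog*, *Mag* and *Mobp* were correlated with each other at r of 0.88 to 0.93. *Mal* was the member least like the others, with r of −0.15 to 0.61, and *Ermn* was close to *Mbp* (0.87) and *Mag* (0.85) but not to *Ugt8a* (0.29).

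**Figure D3:**
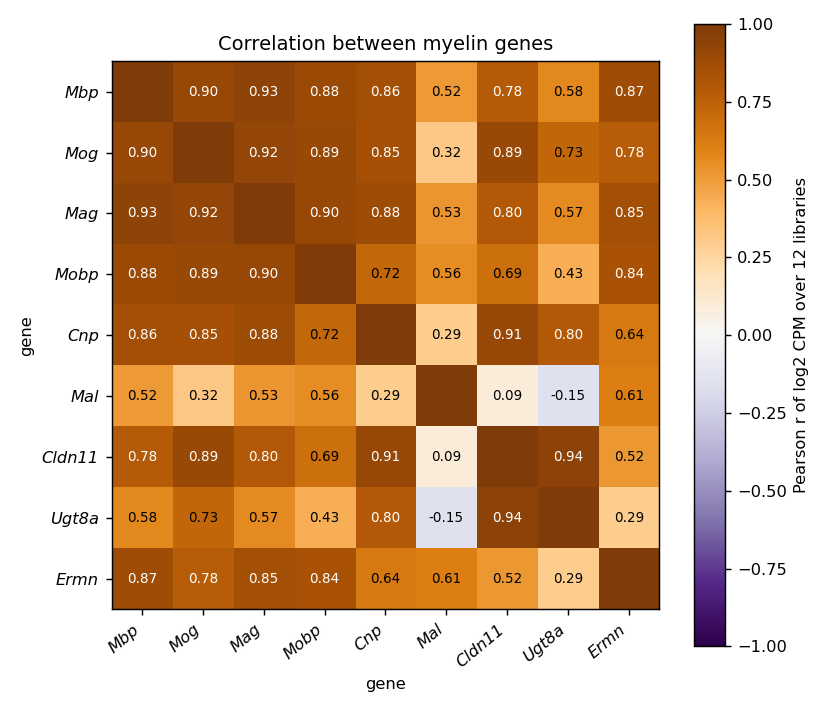
Pearson r of log2 CPM over 12 libraries is shown for each pair of the 9 genes, with the value in each cell and color from −1 to 1. *Mal* has the palest row, with r of −0.15 to 0.61, and *Cldn11* with *Ugt8a* has the highest value, 0.94.

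Among 13224 genes with a mean log2 CPM of at least 1, those most like the mean of the 9 members included *Kndc1* (r = 0.98), *Rassf10* (0.97), *Sirt2* (0.96), *Enpp6* (0.96), *Myrf* (0.95), *Ptgds* (0.95) and *Tprn* (0.94). Gene by gene, the closest were *Itgae* for *Mbp* (0.95), *Ddit4* for *Mog* (0.96), *Rassf10* for *Mag* (0.98), *LOC118567689* for *Mobp* (0.96), *Cdkn1c* for *Cnp* (0.96), *Sfxn3* for *Mal* (0.90), *Nfasc* for *Cldn11* (0.99), *Tmem108* for *Ugt8a* (0.99) and *Flt3* for *Ermn* (0.88). *Myrf*, *Enpp6*, *Sirt2* and *Nfasc* are known oligodendrocyte genes, and *Itgae* and *Flt3* are known from immune cells.

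Other myelin and mature oligodendrocyte genes moved in both directions. Of 34 measured, 15 rose and 5 fell in PDGFRA+ over GAL1+ cells (median log2 fold change 0.53). The count was 17 and 2 in PDGFRA- over GAL1+ cells (median 1.28), 8 and 16 in GAL1+ over GAL1- cells (median −0.96), 9 and 3 in PDGFRA- over GAL1- cells (median 0.39), 3 and 0 in PDGFRA+ over GAL1- cells (median −0.33), and 0 and 0 in PDGFRA+ over PDGFRA- cells (median −0.55). Over all genes 20.9% rose and 17% fell in PDGFRA+ over GAL1+ cells, and 13.2% and 6.91% in PDGFRA- over GAL1+ cells. Shares were 28.9% and 29.3% in GAL1+ over GAL1-, 16.2% and 6.88% in PDGFRA- over GAL1-, and 8.26% and 0.011% in PDGFRA+ over GAL1- cells. The 5 that fell in PDGFRA+ over GAL1+ cells and the 3 that rose in PDGFRA+ over GAL1- cells were near these shares. The 8 that rose in GAL1+ over GAL1- cells were under theirs. The genes that rose most in PDGFRA+ over GAL1+ cells were *Pllp* (2.32), *Nfasc* (2.08), *Opalin* (2.08) and *Tmem88b* (1.99). *Opalin* rested on 0 to 4 reads in GAL1+ libraries, 2 of them at or under the floor, so its size depends on the offset.

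*Trf* and *Evi2a*, singled out after their values were seen, went the other way. *Trf* encodes transferrin, which carries iron, and both genes are also made by cells outside the oligodendrocyte lineage. They rose by 4.07 and 4.53 in GAL1+ over GAL1- cells.

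Enzymes of galactolipid and sphingolipid synthesis also moved in both directions. Of 12, 3 rose and 3 fell in PDGFRA+ over GAL1+ cells, and 5 rose and 3 fell in GAL1+ over GAL1- cells. Over all genes 20.9% rose and 17% fell in the first of these comparisons and 28.9% and 29.3% in the second, so these counts are near the background. *Fa2h*, the fatty acid 2-hydroxylase (1.99), *Gal3st1*, which makes sulfatide (1.72), and *Elovl7*, a fatty acid elongase (1.68), rose in PDGFRA+ over GAL1+ cells as *Ugt8a* did. *Sptlc2*, a subunit of the enzyme that begins all sphingolipid synthesis, fell by 0.81. In PDGFRA- cells 3 rose over GAL1+ cells and 3 over GAL1- cells with none lower, where 13.2% and 16.2% of all genes rose. Neither comparison of PDGFRA+ cells with PDGFRA- or GAL1- cells called a gene of this list.

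Most regulators of myelin genes fell in GAL1+ cells. Of 15, 2 rose and 12 fell in GAL1+ over GAL1- cells (median −2.33), 10 rose and 1 fell in PDGFRA+ over GAL1+ cells (median 1.63), and 10 rose in PDGFRA- over GAL1+ cells (median 1.65). In PDGFRA- over GAL1- cells 1 rose and 1 fell, and no regulator was called in PDGFRA+ over PDGFRA- or GAL1- cells. Over all genes 28.9% rose and 29.3% fell in GAL1+ over GAL1- cells, and 20.9% and 17% in PDGFRA+ over GAL1+ cells. Shares were 13.2% and 6.91% in PDGFRA- over GAL1+, 16.2% and 6.88% in PDGFRA- over GAL1-, and 8.26% and 0.011% in PDGFRA+ over GAL1- cells. The 2 regulators that rose in GAL1+ over GAL1- cells and the 1 that fell in PDGFRA+ over GAL1+ cells were under these shares. The calls in PDGFRA- over GAL1- cells were under or near them. *Olig1* (2.67), *Myt1* (2.66), *Olig2* (2.43) and *Nkx6-2* (2.29) had the largest log2 fold changes of PDGFRA+ over GAL1+ cells, *Nkx6-2* on 1 to 7 reads in GAL1+ libraries, 2 of them at or under the floor. *Myrf*, whose log2 CPM followed the members over the libraries, was at 5.91, 6.08 and 6.60 in PDGFRA- cells of T3, T4 and T5 and at 5.15, 4.66 and 4.97 in PDGFRA+ cells.

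OPC genes, the earliest stage listed, had a different order of the populations from the members. They were highest in GAL1- cells (summed 8284 to 9484 CPM) and next in PDGFRA+ cells (6242 to 9028), then in PDGFRA- (2581 to 6500) and GAL1+ cells (1021 to 2905), with overlap between neighbors in this order. All 14 rose in PDGFRA+ over GAL1+ cells (20.9% of all genes) and all 14 fell in GAL1+ over GAL1- cells (29.3%). In PDGFRA- over GAL1+ cells 12 rose (13.2% of all genes) and in PDGFRA- over GAL1- cells 8 fell (6.88%). None was called in PDGFRA+ over GAL1- cells, where 8.26% of all genes rose and 0.011% fell. In PDGFRA+ over PDGFRA- cells all 14 had positive log2 fold changes (median 0.73) and none was called, where 8 of the 9 members had negative ones. The list and its sums include *Pdgfra*, the sort marker, whose rise in PDGFRA+ cells is tied to the gate and is no separate result. *Pdgfra* (2.72), *Cspg5* (2.57), *Tnr* (2.57) and *Lhfpl3* (2.55) led the rise over GAL1+ cells.

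Genes of committed and newly formed oligodendrocytes had the order of the members by summed level in T3 and T5. In T4 GAL1- cells (1857 CPM) stood above PDGFRA- cells (1760 CPM). The summed level of this list was 1760 to 1907 CPM in PDGFRA-, 1710 to 1857 in GAL1-, 1357 to 1609 in PDGFRA+ and 876 to 984 in GAL1+ libraries, so PDGFRA- and GAL1- cells overlapped. Of 14, 10 rose and 1 fell in PDGFRA+ over GAL1+ cells, with *Neu4* (2.80), *Gpr17* (2.56), *Bcas1* (1.81) and *Lims2* (1.75) the highest of those that rose. *9630013A20Rik* was at 2.36 and did not pass (adjusted p = 0.0504), with 0 to 22 reads in GAL1+ libraries. The counts were 11 and 0 in PDGFRA- over GAL1+ cells and 3 and 11 in GAL1+ over GAL1- cells. They were 2 and 0 in PDGFRA- over GAL1- cells, and 0 and 1 in PDGFRA+ over GAL1- cells. Over all genes 20.9% rose and 17% fell in PDGFRA+ over GAL1+ cells, and 13.2% and 6.91% in PDGFRA- over GAL1+ cells. Shares were 28.9% and 29.3% in GAL1+ over GAL1-, 16.2% and 6.88% in PDGFRA- over GAL1-, and 8.26% and 0.011% in PDGFRA+ over GAL1- cells. The 1 that fell in PDGFRA+ over GAL1+ cells was under its share. So were the 3 that rose in GAL1+ over GAL1- cells, and the 2 in PDGFRA- over GAL1- cells were near theirs. In PDGFRA+ over PDGFRA- cells none was called, with a median log2 fold change of −0.48, between those of OPC genes (0.73) and of the 9 members (−1.37). The 34 other myelin and mature oligodendrocyte genes had a median of −0.55 there, close to that of this list.

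**Figure D4:**
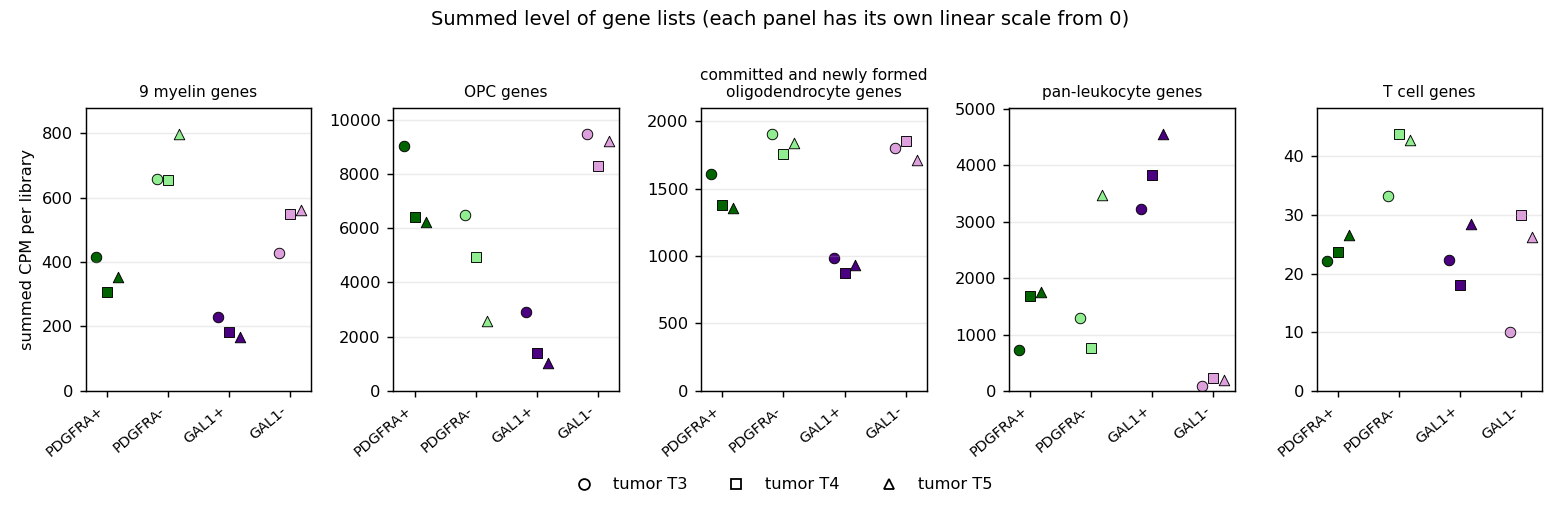
The summed CPM per library of the 9 myelin genes, of OPC genes, of committed and newly formed oligodendrocyte genes, of pan-leukocyte genes and of T cell genes is plotted for the 4 populations, with 1 point per library and a marker for each tumor. Myelin genes are highest in PDGFRA- libraries (654 to 798 CPM), OPC genes reach 9484 CPM in GAL1-, and pan-leukocyte genes are highest in GAL1+ libraries (3232 to 4562 CPM).

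Markers of other cell types moved with the sorts as well, and their part in the myelin results was not tested. The 12 pan-leukocyte genes summed to 3232 to 4562 CPM in GAL1+, 761 to 3468 in PDGFRA-, 724 to 1746 in PDGFRA+ and 86.5 to 232 in GAL1- libraries. All 12 rose in GAL1+ over GAL1- cells, in PDGFRA+ over GAL1- cells and in PDGFRA- over GAL1- cells. Over all genes 28.9%, 8.26% and 16.2% rose in these comparisons. All 12 fell in PDGFRA+ over GAL1+ cells, led by *Ptprc* (−1.73), *Cd53* (−1.70), *Fcer1g* (−1.70) and *Arhgdib* (−1.68), and 3 fell in PDGFRA- over GAL1+ cells. There 17% and 6.91% of all genes fell. By summed level, the 9 myelin genes were lower in GAL1+ libraries, where leukocyte genes were high. Their sum was higher in PDGFRA- than in GAL1- libraries, where leukocyte genes were also higher. Of the 9, 3 were called in PDGFRA- over GAL1- cells, and *Ugt8a* had the opposite sign there (−0.49). Within PDGFRA- cells, T4 had the lowest leukocyte sum (761 CPM) and T5 the highest (3468 CPM), at summed myelin levels of 654 and 798 CPM.

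Microglia genes summed to 1832 to 2520 CPM in GAL1+, 429 to 1151 in PDGFRA+, 327 to 1269 in PDGFRA- and 83.0 to 153 in GAL1- libraries, and macrophage genes to 2695 to 3617, 522 to 1417, 667 to 3091 and 39.2 to 91.4. All 10 of each rose in GAL1+ over GAL1- cells. In PDGFRA+ over GAL1+ cells 5 microglia genes fell, including *Gpr34* (−1.82), *P2ry12* (−1.78) and *Tmem119* (−1.50), and 10 macrophage genes fell, including *Ccr2* (−2.27), *F13a1* (−2.07), *Ms4a7* (−1.98) and *Arg1* (−1.83). In PDGFRA- over GAL1+ cells 7 and 4 of them fell. Both lists were higher in PDGFRA- than in GAL1- libraries, with 8 microglia and 9 macrophage genes called. In PDGFRA+ over GAL1- cells 9 of each were called. Over all genes 28.9% rose in GAL1+, 16.2% in PDGFRA- and 8.26% in PDGFRA+ over GAL1- cells. In PDGFRA+ and PDGFRA- over GAL1+ cells 17% and 6.91% of all genes fell.

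The 8 T cell genes summed to 33.3 to 43.9 CPM in PDGFRA-, 22.2 to 26.5 in PDGFRA+, 18.0 to 28.5 in GAL1+ and 10.0 to 30.0 in GAL1- libraries. PDGFRA- libraries were the highest of their tumor for T cell genes as for *Mal*, and GAL1- cells of T3 were the lowest of all for both. In T4 the orders differed, since GAL1+ cells had the lowest T cell sum of that tumor (18.0 CPM) and its second highest *Mal* level. They differed in T5 as well, where GAL1- cells had the lowest T cell sum (26.3 CPM). Their *Mal* level there (2.57) stood above those of GAL1+ (2.21) and PDGFRA+ cells (1.59). Of the 8, 3 rose in PDGFRA- over GAL1+ cells, 1 in PDGFRA- over GAL1- cells and 1, *Lck* (0.81), in PDGFRA+ over GAL1+ cells. Over all genes 13.2%, 16.2% and 20.9% rose in these comparisons. The Galectin-1 sort called 1 higher and 1 lower, against 28.9% and 29.3% of all genes, and none was called in the other comparisons.

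Of 7 measured genes of Schwann cells and peripheral myelin, 2 rose in PDGFRA+ over GAL1+ cells (*Pou3f1*, 1.64, and *Egr2*, 0.63), 1 rose and 2 fell in GAL1+ over GAL1- cells, and 1 rose and 1 fell in PDGFRA- over GAL1+ cells. Over all genes 20.9% rose in PDGFRA+ over GAL1+ cells, and 28.9% rose and 29.3% fell in GAL1+ over GAL1- cells. In PDGFRA- over GAL1+ cells 13.2% of all genes rose and 6.91% fell. Endothelial genes summed to 315 to 393 CPM in GAL1+, 222 to 254 in PDGFRA-, 157 to 325 in PDGFRA+ and 45.0 to 88.3 in GAL1- libraries. Of 10, 9 rose in each of GAL1+, PDGFRA+ and PDGFRA- over GAL1- cells, against 28.9%, 8.26% and 16.2% of all genes. In PDGFRA+ over GAL1+ cells 1 fell (*Slco1a4*, −1.02), under the 17% of all genes that fell there. Neuron genes were at 8.41 to 139 CPM in all libraries, and *Snap25* (2.18) and *Gad1* (1.96) of 9 rose in PDGFRA+ over GAL1+ cells. That count is near the 20.9% of all genes that rose there. Of 9 astrocyte genes, 4 rose in the same comparison, *Slc1a2* (2.34), *Aldoc* (2.08), *Slc1a3* (1.35) and *S100b* (1.02). In GAL1+ over GAL1- cells 4 of each list fell and none rose, against 29.3% and 28.9% of all genes. In PDGFRA- over GAL1+ cells 2 of each rose (13.2% of all genes). In PDGFRA- over GAL1- cells 1 neuron and 3 astrocyte genes fell (6.88% of all genes).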

How the data were processed

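RNA from 12 libraries (4 sorted populations of EGFR+ cells from each of 3 mouse GBMs) was measured by bulk RNAseq. The authors trimmed reads with fastp, aligned them with STAR to mm39, counted them on exons with featureCounts (multi-mapping reads as fractions), dropped genes unless 3 or more samples had over 1 CPM, normalized by TMM and applied voom. The deposited values are log2 CPM for 18180 genes, with an offset of 0.5 on each count. Levels are relative to the library, so a gene can move because others do.

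Recovered reads take the lowest value of a library as a count of 0, and 41.2% to 59.1% of values came out whole within 0.001, since multi-mapping reads were fractions. No count model was therefore run, and depth was 9851175 to 24117541 reads. A linear model with a term per population and a block per tumor was fitted to all 12 libraries with limma 3.58.1 in R 4.3.3 (two-sided moderated test with a trend, on 6 residual plus 3.49 prior degrees of freedom), with Benjamini-Hochberg adjustment over all genes and a threshold of 0.05. The labels give the tumor of each library, so libraries are paired by tumor (r of 0.140 to 0.662 over 18 pairs). P-values rest on the spread left after the terms for population and tumor, pooled over the 4 populations of these 3 tumors. The labels do not say whether each tumor came from its own mouse. The fit was checked on simulated data. The members and gene lists were chosen with earlier results of these data known. Named genes were all 9 members, for other lists up to 4 called genes with the largest change in PDGFRA+ over GAL1+ cells, and the genes most correlated with the members (those named Gm plus a number or ending in Rik left out, mean log2 CPM of at least 1). Promoters were taken from RefSeq (GRCm38.p6) by symbol, with *Mbp* left out, and none of that build's positions was used with the libraries. Some genes and 1 allele are not reported here. Figures were drawn with matplotlib 3.10.9.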

Additional observations from a re-analysis of the deposited data

How the results depend on the processing

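The alternatives were a fit without the tumor block, a fit to the populations compared alone, eBayes with no trend, robust eBayes, voom weights, log2(CPM + 1), keeping genes whose log2 CPM passed 1 or 3 in 3 samples, quantile normalization, median centring, leaving out each tumor, and other call rules. The count of members called in GAL1+ over GAL1- cells was 7 and stayed at 5 to 7, and that in PDGFRA+ over GAL1+ cells was 3 and stayed at 2 to 4. In PDGFRA- over GAL1+ cells it was 8, and 0 to 7 with a tumor left out. Fewer samples enter those fits. In PDGFRA- over GAL1- cells it was 3, with no replicate block 0, with voom weights 6, with log2(CPM + 1) 5, at an unadjusted p under 0.05 6, and with a tumor left out 0 to 2. In PDGFRA+ over GAL1- cells it was 0, and 5 with the populations compared alone, 1 with median centring and 3 at an unadjusted p. In PDGFRA+ over PDGFRA- cells it was 0 under every alternative but the unadjusted p, which gave 7. The cause of these changes was not tested. Without the block the other counts of members called were 0, 6, 3, 8 and 0 in the order PDGFRA+ over PDGFRA-, GAL1+ over GAL1-, PDGFRA+ over GAL1+, PDGFRA- over GAL1+ and PDGFRA+ over GAL1- cells.

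Directions turned for 3 values, none of them called. *Ugt8a* in PDGFRA+ over PDGFRA- cells ran from −0.061 to 0.15 with a tumor left out, *Ermn* in PDGFRA+ over GAL1+ cells from −0.89 to 0.21, and *Mal* in PDGFRA+ over GAL1- cells from −0.49 to 0.80 and to −0.039 after quantile normalization. Depth limits *Mog* and *Ermn* most, at 1 to 98 and 5 to 92 reads per library.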
